A study of Rattus norvegicus with 32 samples.

Results

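In the renal cortex, 114 genes had a lower level in every rat given 4 medications after Roux-en-Y gastric bypass (RYGB-FMRR) than in every rat given the bypass alone (RYGB). They were selected on these values. A gene was a member when all 7 RYGB-FMRR rats lay below all 9 RYGB rats in log2 CPM, the log2 of read counts per 1000000 counts of the library, when the difference between the group means was -0.3 or lower, and when the mean over both groups was at least 0. Of 26404 annotated genes, 13358 had a mean level of at least 0 and so were eligible, and the 114 members were 0.853% of these. Because the RYGB-FMRR and RYGB values chose the members, these values are given below as a description and carry no test. The Sprague Dawley (SD) and SHAM rats took no part in the choice, so their values did not enter it. Levels over all eligible genes nevertheless moved with scaling and exonic length in both comparisons, as given below. The test of SHAM against SD also took its estimate of spread from rats of all 4 groups.

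RNA sequencing counts were analysed for 6 SD control rats and for 3 groups of Zucker Diabetic Sprague Dawley (ZDSD) rats, a polygenic strain that develops obesity and diabetes on chow and then early kidney disease. The ZDSD groups were SHAM (laparotomy, 9 rats), RYGB (9 rats) and RYGB-FMRR (7 rats), the last with fenofibrate, metformin, ramipril and rosuvastatin mixed into the chow once the rats had recovered from surgery. All rats were male and the labels give an age of 37 weeks throughout. By the methods, however, surgery was performed at the youngest age in SHAM and at a slightly younger age in RYGB-FMRR than in RYGB. They also place tissue collection a set period after the intervention, which would not give a single age. All 3 ZDSD groups received insulin before surgery. SD differed from SHAM in strain, in diabetes and in surgery, and these cannot be told apart. As the medications were given together, their separate effects cannot be told apart either. In RYGB-FMRR compared with RYGB, the medications and the age at surgery cannot be told apart. A further rat labelled as RYGB-FMRR was not analysed here.

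The renal cortex is made up mainly of proximal tubules, which reabsorb most of the glomerular filtrate and burn fatty acids to do so, along with glomeruli, distal segments, vessels and interstitial cells. Fenofibrate activates the nuclear receptor PPAR-alpha, the main inducer of fatty acid oxidation genes in liver and kidney, whereas metformin lowers hepatic glucose output and activates the energy sensor AMPK. Ramipril blocks the formation of angiotensin II, and rosuvastatin inhibits the rate-limiting enzyme of cholesterol synthesis, which makes cells raise their own sterol synthesis genes. In whole cortex a lower level can come from fewer cells of a type or from less RNA per cell, and these cannot be told apart.

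Total counts were between 14502127 and 27597901 in 29 libraries. The other 2 libraries, from SHAM rats 343 and 348, held 121511 and 101534 counts and were left out, so SHAM below means 7 rats. The 100 most abundant genes took a larger share of the counts in SD (19.8% to 22.3%) and RYGB-FMRR (19.8% to 21.7%) than in SHAM (16.8% to 19.7%), with RYGB at 18.1% to 20.01%. With libraries scaled to their totals, the median of all eligible genes was shifted by -0.10 in RYGB-FMRR relative to RYGB and by 0.13 in SHAM relative to SD on the log2 scale. Trimmed-mean (TMM) scaling, which corrects for such differences in composition, reduced these shifts to -0.01 and 0.01. TMM-scaled log2 CPM is used for every level given below, and library totals only for the difference that chose the members. On the TMM scale 61 of the 114 members still had every RYGB-FMRR rat below every RYGB rat, and 48 met the whole rule. No other gene met it on that scale.

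The genes could be given only by their Ensembl identifier and position in the rat build rn5, since the tables used here pair none of the 26404 identifiers with a symbol. What the members encode, the gene lists and the cortical cell type markers were therefore not analysed here. Most members are given by position, and identifiers are kept for the pair with the largest differences between RYGB-FMRR and RYGB and for the pair with the largest called rises in SHAM.

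Differences between RYGB-FMRR and RYGB ran from -0.30 to -2.16 over the members, with a median of -0.45, against a median of -0.10 over all eligible genes. They were at least 0.5 in size in 51 members and at least 1, which is a 2-fold lower level, in 15. Mean levels over the 2 groups spanned 0.13 to 10.1 log2 CPM with a median of 4.28, slightly below the 4.80 of all eligible genes. Just inside the threshold were genes at chr2:160051126-160093343 (-0.31) and chr19:23595328-24054765 (-0.30), and just outside it were genes at chr13:88322945-88331583 (-0.298) and chr19:28364201-28410920 (-0.291), so the cut falls within a continuous range of values.

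The largest difference belonged to ENSRNOG00000011231, a plus-strand gene of 12 exon blocks at chr19:55878687-55952179. Its lowest, median and highest log2 CPM were 2.84, 3.17 and 3.55 in SD and 3.27, 3.96 and 4.27 in SHAM, while the RYGB rats had 2.27, 2.90 and 3.52 and the RYGB-FMRR rats 0.09, 0.88 and 1.73. Every RYGB-FMRR rat was thus below every rat of the other 3 groups, with a level 4.45-fold lower than in RYGB on the scale of the rule. The median count was 140 in RYGB and 37 in RYGB-FMRR. The RYGB rats overlapped the SD rats over most of their range, whereas SHAM was higher than SD by a log2 fold change of 0.71 (SE 0.22, edgeR quasi-likelihood adjusted p = 0.0126, n = 6 SD and 7 SHAM).

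ENSRNOG00000017546, a plus-strand gene of 13 exon blocks at chr19:38373230-38407268, had the next largest difference (-1.62) and a different course. The lowest, median and highest values were 0.13, 0.83 and 1.80 in SD and -0.38, 0.96 and 2.51 in SHAM, while the RYGB rats had 1.90, 2.28 and 3.15 and the RYGB-FMRR rats -0.17, 1.13 and 1.59. Here RYGB was the group that stood apart, being above all SD and RYGB-FMRR rats and overlapping SHAM only through the highest SHAM rat. SHAM and SD did not differ detectably (log2 fold change 0.25, SE 0.35, edgeR quasi-likelihood adjusted p = 0.602).

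**Figure D1:**
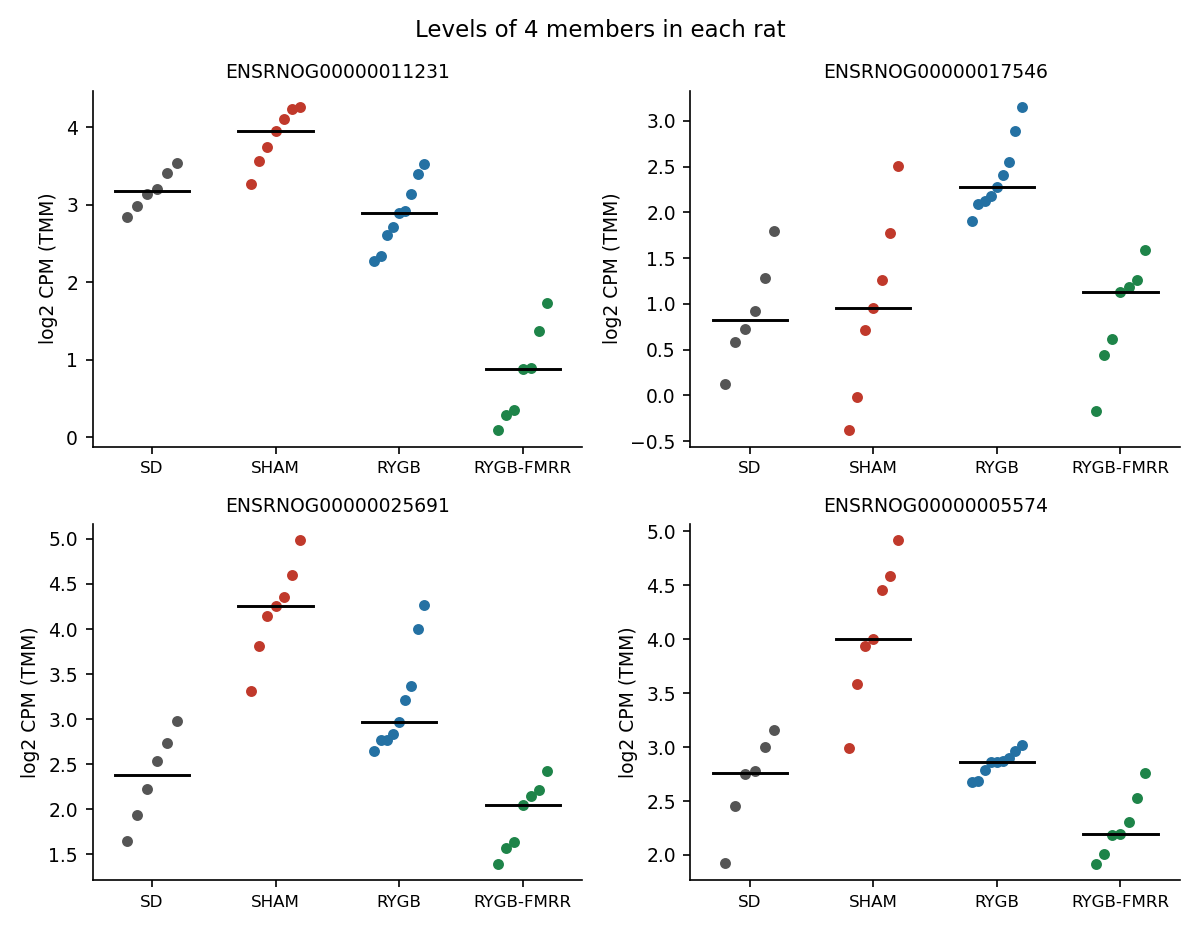
TMM-scaled log2 CPM of 4 members in each of 29 rats by group; each point is a rat and each black line the group median. ENSRNOG00000011231 was lowest in all 7 RYGB-FMRR rats, ENSRNOG00000017546 was highest in RYGB by its median, and ENSRNOG00000025691 and ENSRNOG00000005574 had their highest medians in SHAM, at 4.26 and 3.999.

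Of the other members with a 2-fold or larger difference, several also lay below SD and SHAM in every RYGB-FMRR rat. A minus-strand gene of 23 exon blocks at chr14:86893087-86982260 had medians of 1.99 in SD, 2.03 in SHAM and 2.12 in RYGB, against 0.65 in RYGB-FMRR, whose highest rat (1.24) was below the lowest SD (1.37), SHAM (1.26) and RYGB (1.43) rats. A single-exon gene at chr5:150531666-150534380 had medians of 4.50 in SD and 5.50 in SHAM, and of 4.68 and 3.48 in RYGB and RYGB-FMRR, with all RYGB-FMRR rats between 2.98 and 3.88 and no other rat below 4.32. For this gene the excess of SHAM over SD passed the test (log2 fold change 0.78, SE 0.17, edgeR quasi-likelihood adjusted p = 0.00102).

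A minus-strand gene of 19 exon blocks at chr5:66802348-67142203 stepped down across the ZDSD groups. The lowest, median and highest values were 2.69, 3.002 and 3.23 in SHAM, 1.45, 1.91 and 2.19 in RYGB, and -0.16, 0.92 and 1.004 in RYGB-FMRR, so none of the 3 groups overlapped another. SD lay at 1.76, 2.65 and 2.98, with its median between those of SHAM and RYGB. In all 15 members with a 2-fold or larger difference the RYGB-FMRR mean was below the SD mean. In 7 of the 15 every RYGB-FMRR rat was below every SD and SHAM rat. Both counts follow in part from the choice of members, and no share over all genes was computed for them. On the TMM scale 13 of the 15 kept RYGB-FMRR and RYGB apart.

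Among the 12 members with the largest differences, ENSRNOG00000011231 and the gene at chr5:150531666-150534380 were called higher in SHAM than in SD, as given above. ENSRNOG00000025691 was called too and is described with the higher members below. A further 2 were called, in opposite directions. At chr14:33440563-33469053, a minus-strand gene with 6557 exonic bases, RYGB-FMRR rats spanned 1.69 to 2.60, below every SD (3.07 to 3.81), SHAM (3.36 to 4.11) and RYGB (2.81 to 3.73) rat. SHAM was called higher than SD there (log2 fold change 0.41, SE 0.15, edgeR quasi-likelihood adjusted p = 0.0357), a call lost without any of 4 SD or 2 SHAM rats in turn, without the filter on low counts and after an offset for exonic length, which removes each library's trend with length. At chr8:70452358-70467298 SHAM was called lower (log2 fold change -0.83, SE 0.23, edgeR quasi-likelihood adjusted p = 0.00644), with medians of 3.50 in SD, 2.55 in SHAM and 2.44 in RYGB, and RYGB-FMRR at 1.57.

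The rest of these 12 members were not called in SHAM compared with SD. Genes at chr15:46736822-46741141 and chr1:270631411-270687644 had RYGB-FMRR medians of 3.11 and 2.64 and SD medians of 4.30 and 3.81, and in both every RYGB-FMRR rat was below every SD rat. The first was called lower in SHAM without SHAM rat 321 (log2 fold change -0.53) or rat 340 (-0.63). At chr19:26248405-26290279 the RYGB-FMRR rats (3.80 to 5.33) overlapped the SD rats (4.26 to 6.19) and lay below the RYGB rats (5.35 to 6.202) by only a narrow gap, and without SD rat 356 SHAM was called higher (log2 fold change 0.80). At chr20:15287748-15296457 counts were low, with medians of 30 in RYGB and 15 in RYGB-FMRR, and SHAM spanned -0.94 to 2.69 log2 CPM.

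At the other end of the range, the most abundant members had small differences. A gene with 16326 exonic bases at chr1:232122559-232151281, the most abundant of all 114, had a median count of 23832 in RYGB and 21360 in RYGB-FMRR. Its lowest, median and highest log2 CPM were 9.35, 9.59 and 9.88 in SD and 9.89, 9.98 and 10.62 in SHAM, while the RYGB rats had 10.06, 10.29 and 10.48 and the RYGB-FMRR rats 9.73, 9.92 and 9.98. Every SHAM rat exceeded every SD rat, although narrowly (log2 fold change 0.48, SE 0.10, edgeR quasi-likelihood adjusted p = 0.000376). The next most abundant, at chr4:241606529-241650653, had medians of 9.08 in SD and 9.06 in SHAM but 9.51 in RYGB and 9.23 in RYGB-FMRR. Of the next 4 by abundance, SHAM was called higher than SD at chr3:127099278-127123286 (median 8.35 in SD and 8.69 in SHAM) and at chr9:25493724-25564058 (7.57 and 8.13), and called lower at chr6:108493028-108565605 (8.82 and 8.38). At chr9:8988686-9004247 (7.85 and 7.78) it was not called. In all 4 the RYGB-FMRR median was below the RYGB median by less than 0.5, and at chr9:25493724-25564058 all rats of the 3 ZDSD groups were above all SD rats. These fold changes were close to the 1.3-fold limit. Without SHAM rat 333 those at chr1:232122559-232151281 and chr3:127099278-127123286 were 0.37 and 0.36 on the log2 scale and no longer called, and without SD rat 357 that at chr6:108493028-108565605 was -0.36 and no longer called, as it also was with library totals only (-0.33). The offset for exonic length ended the calls at chr1:232122559-232151281 (0.30) and chr9:25493724-25564058 (0.37).

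SHAM was then compared with SD to ask where the members stood in the cortex of ZDSD rats that had neither bypass nor the medications. All 114 members passed the filter on low counts, and 14776 genes were tested together. A gene was called at an absolute fold change of at least 1.3 with a Benjamini-Hochberg adjusted p under 0.05. SHAM was higher than SD in 29 members (25.4%) and lower in 15 (13.2%), and 70 (61.4%) were not called. Over all genes tested, 10.6% were called higher and 8.0% lower. The members' share of calls was thus above the background in both directions, and farther above it for the higher calls. The median log2 fold change of SHAM relative to SD was 0.14 over the members and 0.02 over all genes, and it was above 0 in 75 members (65.8%) and in 52.3% of all genes.

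With libraries scaled to totals only, 41 members were called higher and 9 lower, so that the higher share of the members called went from 65.9% to 82.0%, while over all genes it went from 56.9% to 76.1%. Without rat 333, the SHAM library with the lowest total among the 7 (14502127 counts), 21 members were called higher and 13 lower, and calls over all genes went to 1219 higher and 1002 lower from 1562 and 1182. Among the 48 members that met the rule on both scales, 15 were called higher and 8 lower. The spread in the test came in part from the RYGB and RYGB-FMRR rats that chose the members. With only SD and SHAM in the model, 25 members were called higher and 14 lower, beside 1290 and 1052 of all genes.

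A stricter count, of genes in which the groups did not overlap, lay above the background for the higher members only. Every SHAM rat was above every SD rat in 10 members (8.77%, against 4.2% of all genes tested) and below in 3 (2.63%, against 4.43%).

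**Figure D2:**
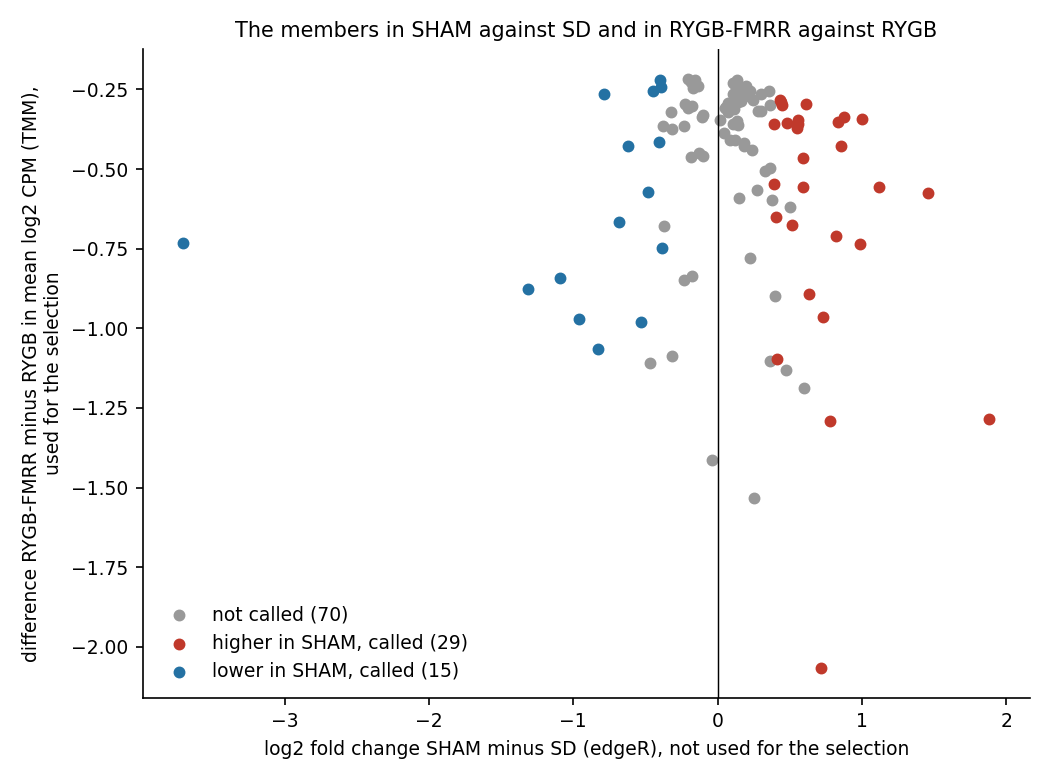
Each point is one of the 114 members. The horizontal axis is the log2 fold change of SHAM minus SD from edgeR, which the choice of members did not use, and the vertical axis is the difference RYGB-FMRR minus RYGB in mean TMM-scaled log2 CPM, which it did; red marks the 29 members called higher in SHAM, blue the 15 called lower and grey the 70 not called. Members lie on both sides of 0 on the horizontal axis, with 75 to its right.

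Among the members that were higher in SHAM, ENSRNOG00000025691, a minus-strand gene of 12 exon blocks at chr9:18813230-18855030, had the largest rise. Its lowest, median and highest log2 CPM were 1.65, 2.38 and 2.98 in SD and 3.32, 4.26 and 4.99 in SHAM, while the RYGB rats had 2.64, 2.97 and 4.26 and the RYGB-FMRR rats 1.39, 2.04 and 2.42. SHAM and SD did not overlap (log2 fold change 1.88, SE 0.28, edgeR quasi-likelihood adjusted p = 1.18e-05). The RYGB rats lay between SHAM and SD or within either, and the RYGB-FMRR rats lay in the lower part of the SD range and below it.

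ENSRNOG00000005574, a plus-strand gene of 9 exon blocks at chr8:32044798-32063464, was next. Values were 1.92, 2.76 and 3.16 in SD and 2.99, 3.999 and 4.92 in SHAM, while the RYGB rats had 2.67, 2.86 and 3.01 and the RYGB-FMRR rats 1.92, 2.19 and 2.76. The rise in SHAM (log2 fold change 1.46, SE 0.22, edgeR quasi-likelihood adjusted p = 1e-05) was seen against an RYGB group that lay entirely within the SD range. On the TMM scale the highest RYGB-FMRR rat slightly exceeded the lowest RYGB rat for this gene. Among the other genes described singly, such overlap was also present at chr1:270631411-270687644, chr14:12306370-12331030, chr12:46049288-46209569, chr10:93922062-93957568, chr5:14155561-14181247, chr3:127099278-127123286, chr6:108493028-108565605 and chr19:23595328-24054765.

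A minus-strand gene of 3 exon blocks at chr14:12306370-12331030 had a median of 3.04 in SD and 4.14 in SHAM, without overlap (log2 fold change 1.12, SE 0.16, edgeR quasi-likelihood adjusted p = 4.81e-06). RYGB (median 2.40) and RYGB-FMRR (1.92) had medians below that of SD, and every RYGB rat was below every SHAM rat. A different course was seen for a plus-strand gene of 8 exon blocks at chr1:29910327-30031363, with medians of 2.54 in SD and 3.65 in SHAM, and of 3.45 and 3.16 in RYGB and RYGB-FMRR. All rats of the 3 ZDSD groups were above all SD rats for this gene (log2 fold change of SHAM relative to SD 0.999, SE 0.12, edgeR quasi-likelihood adjusted p = 4.26e-07), so that RYGB-FMRR was the lowest ZDSD group and still above SD. A minus-strand gene of 29 exon blocks at chr12:46049288-46209569 had a higher mean in RYGB (3.22) than in SHAM (2.92), with 1.90 in SD and 2.48 in RYGB-FMRR.

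Over the 29 members called higher in SHAM, the median difference of RYGB from SHAM was -0.14, and that of RYGB-FMRR from SHAM was -0.51. The RYGB-FMRR mean lay within the range of the 6 SD rats in 20 of the 29, and the RYGB mean in 11. The RYGB-FMRR mean was closer than the RYGB mean to the SD mean in 22 of the 29, and was below it in 15. RYGB-FMRR rats took part in the choice of members, so these counts are a description of where the members ended and no evidence on the direction.

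The largest fall in SHAM was that of a minus-strand gene of 11 exon blocks at chr1:196108659-196124218. The 6 SD rats were spread over 3.71, 7.37 and 9.56 log2 CPM (lowest, median, highest), whereas SHAM lay at 4.28, 4.47 and 4.86, RYGB at 4.23, 4.53 and 4.92, and RYGB-FMRR at 3.32, 3.75 and 4.19. A single SD rat (355, at 3.71) lay in the range of the RYGB-FMRR rats and below all SHAM rats, and the other SD rats were all at 7.07 or higher. The log2 fold change of SHAM relative to SD was -3.70 (SE 0.46, edgeR quasi-likelihood adjusted p = 6.9e-07). Between the ZDSD groups this gene varied far less than within SD.

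The other large falls in SHAM were uneven between rats. For a plus-strand gene of 38 exon blocks at chr10:93922062-93957568, SD values were 5.23, 5.67 and 6.14, SHAM 3.69, 3.94 and 5.56, RYGB 4.18, 4.62 and 5.49, and RYGB-FMRR 3.06, 3.94 and 4.27 (log2 fold change of SHAM relative to SD -1.31, SE 0.25, edgeR quasi-likelihood adjusted p = 0.000192). For a plus-strand gene of 17 exon blocks at chr3:160898555-160933737, SHAM spanned 2.68 to 5.40 against 4.19 to 5.62 in SD (log2 fold change -0.96, SE 0.31, edgeR quasi-likelihood adjusted p = 0.0183). With only SD and SHAM in the model the call at chr3:160898555-160933737 was lost (edgeR quasi-likelihood adjusted p = 0.102). A minus-strand gene of 6 exon blocks at chr5:14155561-14181247 spanned 0.47 to 3.20 in SHAM against 2.86 to 4.02 in SD (log2 fold change -1.09, SE 0.30, edgeR quasi-likelihood adjusted p = 0.00579), with RYGB-FMRR at 0.08 to 1.13. In all 3 genes the RYGB-FMRR rats overlapped the lower SHAM rats and extended below or near the lowest of them.

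Over the 15 members called lower in SHAM, the RYGB-FMRR mean was below the SD mean in all 15. Every RYGB-FMRR rat was below every SD rat in 13 (86.7%, against 6.19% of all genes tested). Their median difference of RYGB-FMRR from SD was -1.06, against -0.03 over the 29 members called higher. The RYGB-FMRR mean was closer to SD than the RYGB mean in none of the 15. RYGB lay above SHAM by its mean in 12 of the 15, with a median difference of 0.13. RYGB-FMRR had the lowest of the 4 group means in 12 of the 15, for which no share over all genes was computed. These counts, too, follow in part from members having been chosen for a low RYGB-FMRR level.

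**Figure D3:**
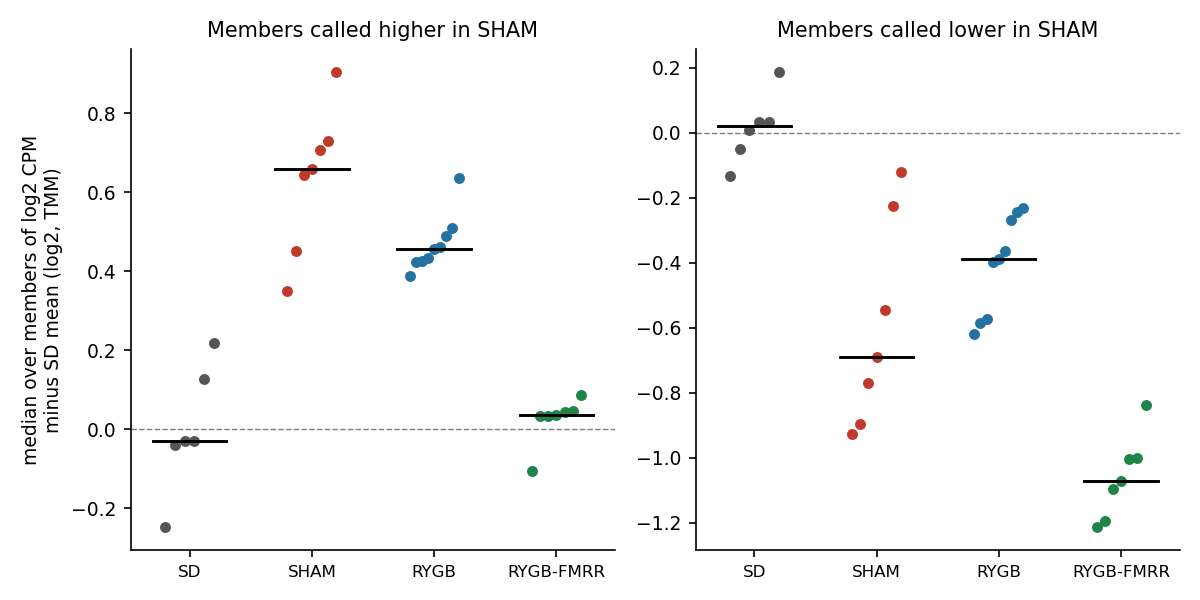
For each rat, the median over the 29 members called higher in SHAM (left) and over the 15 called lower (right) of its TMM-scaled log2 CPM minus the SD mean; each point is a rat, black lines are group medians and the dashed line marks the SD mean. SHAM departs from 0 because its values chose these members. The RYGB-FMRR rats lie near 0 on the left and between -0.84 and -1.21 on the right.

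The SHAM rats did not all depart from SD equally. The median over the 15 lower members was -0.12 in rat 340 and -0.22 in rat 321, and between -0.55 and -0.93 in the other 5 SHAM rats. Over the 29 higher members it ran from 0.35 in rat 340 to 0.90 in rat 333. The small departures of rats 321 and 340 over the lower members were seen in single genes too. At chr3:160898555-160933737 these rats had 5.06 and 5.40, within the SD range, while the other 5 SHAM rats had 4.35 or less.

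The 70 members not called in SHAM compared with SD had a median log2 fold change of 0.12, within a range of -0.47 to 0.60. RYGB-FMRR had the lowest of the 4 group means in 58 of these 70, for which no share over all genes was computed. Every RYGB-FMRR rat was below every SD rat in 23 (32.9%, against 6.19% of all genes tested). Both counts follow in part from the choice of members. The gene at chr14:86893087-86982260, described above, is one of the 70. The gene at chr19:38373230-38407268 is another, in which RYGB rather than RYGB-FMRR stood apart from the rest.

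Over all 114 members, RYGB-FMRR had the lowest of the 4 group means in 85, for which no share over all genes was computed. Every RYGB-FMRR rat was below every SD rat in 41 members (36.0%, against 6.19% of all genes tested) and below every SHAM rat in 41 (36.0%, against 2.36%). Every RYGB-FMRR rat was below every SD and every SHAM rat in 19, for which no share over all genes was computed. The rule required low RYGB-FMRR values, so nothing is read from the excess over the background.

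The contrast of RYGB with SHAM shares the RYGB rats with the rule. Every RYGB rat was above every SHAM rat in 4 members (3.51%, against 0.481% of all genes tested) and below in 3 (2.63%, against 0.785%). Of the 4, a pair are neighbours on chromosome 4 with no eligible gene between them, on opposite strands 70110 bases apart. One, at chr4:241606529-241650653, is the second most abundant member. The other, at chr4:241450858-241536419, had 5.59, 5.71 and 5.83 in SD and 5.70, 5.87 and 5.96 in SHAM, while the RYGB rats had 5.98, 6.10 and 6.21 and the RYGB-FMRR rats 5.79, 5.87 and 5.96. In both, RYGB was the group that stood above the other 3.

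Rat by rat, the number of members outside the SD range separated RYGB-FMRR from the other ZDSD groups. A SHAM rat had 29 to 57 members above all 6 SD rats (median 35), an RYGB rat 27 to 45 (median 37) and an RYGB-FMRR rat 4 to 13 (median 7). Below all 6 SD rats, a SHAM rat had 12 to 33 members (median 21), an RYGB rat 15 to 24 (median 21) and an RYGB-FMRR rat 50 to 62 (median 57). The separation of RYGB-FMRR from RYGB follows from the choice of members. For SHAM, which was not used, both counts overlapped those of RYGB. Over all genes tested, the median SHAM rat had 22.1% of genes above all SD rats and 21.6% below, against 30.7% and 18.4% of the members. The members' share was above that of all genes in 7 of 7 SHAM rats on the upper side and in 2 of 7 on the lower.

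**Figure D4:**
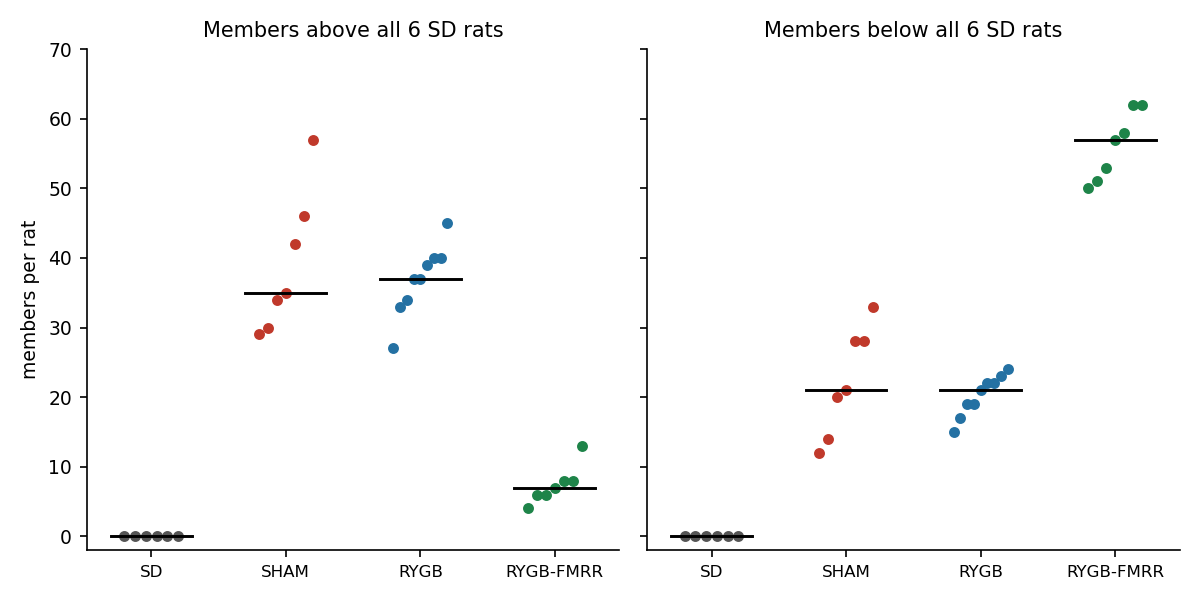
Number of the 114 members that each rat had above all 6 SD rats (left) and below all 6 SD rats (right) in TMM-scaled log2 CPM; each point is a rat and black lines are group medians, with the SD rats at 0 by construction. The RYGB-FMRR rats had 50 to 62 members below the SD range, against at most 33 in any SHAM or RYGB rat. Over all genes tested, the median RYGB-FMRR rat had 21.7% below that range.

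For comparison, the mirror of the rule, with every RYGB-FMRR rat above every RYGB rat and a difference of at least 0.3, gave 155 genes. Of these, SHAM was higher than SD in 7 (4.52%) and lower in 47 (30.3%). The 2 sets thus leaned opposite ways in SHAM compared with SD, and the difference between the sets was not tested.

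The members tended to be long, a property that the rule did not use. Their median exonic length was 2877 bases against 2050 for all eligible genes, with a median of 11 exon blocks against 9, and a median genomic span of 46838 bases against 19550.5. With the eligible genes divided into 4 equal bins of exonic length, from shortest to longest, 8, 21, 36 and 49 members were found. Lengths ranged from 600 to 16326 exonic bases, and 4 members had a single exon block.

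All eligible genes, not the members alone, moved with length between these groups. On the TMM scale the median difference between RYGB-FMRR and RYGB was 0.06, 0.01, -0.02 and -0.07 from the shortest to the longest bin, and that between SHAM and SD was -0.04, -0.02, 0.02 and 0.06. Longer genes were thus slightly lower in RYGB-FMRR than in RYGB and slightly higher in SHAM than in SD, which is the direction of the members. In the longest of 4 equal bins of the genes tested, 12.1% were called higher in SHAM and 5.77% lower, against 12 (23.5%) and 10 (19.6%) of 51 members. In the shortest bin 9.71% were called higher and 9.36% lower, against 3 and 1 of 7 members. When the trend of each library with exonic length was removed, an alternative chosen after seeing the data, 39 genes met the rule, 37 of them members. In SHAM compared with SD, 24 of the 114 members were then called higher and 16 lower, beside 1462 and 1231 of all genes. What part length or library composition had in the choice of the members was not tested.

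**Figure D5:**
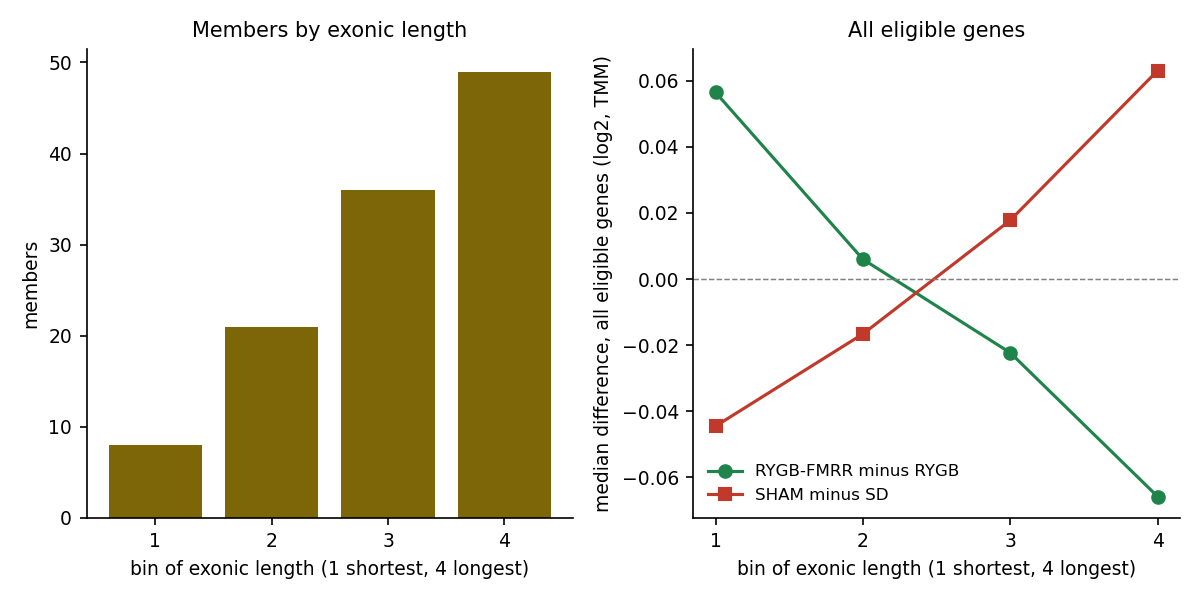
Left, the number of members in each of 4 equal bins of exonic length, with bins taken over all 13358 eligible genes. Right, the median TMM-scaled log2 difference over all eligible genes in the same bins, for RYGB-FMRR minus RYGB (green circles) and SHAM minus SD (red squares). Members rise from 8 in the shortest bin to 49 in the longest, and the 2 lines slope in opposite directions.

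The members were spread over 21 chromosomes, with 15 on chromosome 1, 13 on chromosome 10 and 9 each on chromosomes 2 and 9. As a share of eligible genes they ran from 0.247% on the X chromosome to 1.72% on chromosome 9. Another member lay within 1 Mb of 17 members (14.9%), and a member lay within 1 Mb of 14.1% of the other eligible genes, so the members were about as close to each other as other genes were to them. The densest group was 3 members on chromosome 2, at chr2:245929016-246041116, chr2:246262030-246402956 and chr2:246460175-246521759, with medians of 5.32, 3.66 and 6.50 in RYGB and 4.997, 3.38 and 6.22 in RYGB-FMRR. Their log2 fold changes of SHAM relative to SD were 0.37, -0.32 and 0.13 (edgeR quasi-likelihood adjusted p = 0.00369, 0.0414 and 0.0668). The 3 neighbours thus did not share a direction there. None was called, as the first 2 passed the adjusted p but fell short of the 1.3-fold limit. On the TMM scale the RYGB-FMRR and RYGB rats overlapped in the same 2 genes. The spans of 19 members overlapped another annotated gene, in 5 cases on the same strand. The authors counted reads by strand, and same-strand overlaps leave the source of some reads uncertain.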

How the data were processed

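Renal cortex RNA of each rat was sequenced as stranded total RNA libraries after ribosomal RNA depletion. The authors trimmed the reads with Trim Galore, aligned them to rn5 with STAR and counted read pairs per Ensembl gene with featureCounts 1.6.4 on the reverse strand, per the file headers and the submitters' processing notes. The deposited values were these raw counts, neither normalized nor filtered, and the precision of a level is set by its count as well as by the spread between rats.

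Groups came from the labels. Libraries with at most 1000000 counts (2 SHAM rats) were left out. Log2 CPM was the log2 of 1000000 times (count + 0.5) / (library size + 1), with library totals for the choice of members and TMM effective sizes for levels. SHAM was compared with SD in edgeR 4.0.16 under R 4.3.3 with filterByExpr (minimum count 10), TMM and the quasi-likelihood test, all 4 groups sharing one model without covariates. A call required a fold change of 1.3 or more in size together with an adjusted p (Benjamini-Hochberg, over all 14776 genes) under 0.05. The steps were tested on simulated data. Intervals and p-values rest on rats as replicates.

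The members and the lists were chosen with earlier results of these data known. The genes described singly were the 12 members with the largest difference between RYGB-FMRR and RYGB, the 6 most abundant, the 5 with the largest called log2 fold change in each direction in SHAM compared with SD, and the 2 on each side of the threshold. These were 28 members and 2 further genes. Genes at chr4:241450858-241536419 and in the group on chromosome 2 were added after their values were seen. The 26404 identifiers matched 0 entries of the reference tables, so gene lists, cell type markers, promoter motifs and sequences were not analysed here.

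Alternatives were the DESeq2 1.42.0 Wald test, DESeq2's size factors in edgeR, library totals only, the adjusted p alone, no filter on low counts, all 31 libraries, a model of SD and SHAM alone, leaving out each rat, and other thresholds for the rule. An offset for exonic length was chosen after seeing the data, as were leaving RYGB and RYGB-FMRR rats out of the rule and limiting the members to those that met it on both scales.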

Additional observations from a re-analysis of the deposited data

Results flagged for a closer look

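Of 112 sets of values (28 genes in 4 groups of 6 to 9 rats), 9 had a rat far from the others of its group by Dixon's 95% criterion, where chance gives about 1 in 20. In RYGB-FMRR, rat 336 was lowest at chr5:66802348-67142203 (-0.16 log2 CPM, next rat 0.80), rat 307 at chr1:232122559-232151281 (9.73, next 9.89), rat 339 at chr6:108493028-108565605 (8.21, next 8.40) and rat 323 at chr10:93922062-93957568 (3.06, next 3.75). In SHAM, rat 333 was highest at chr1:232122559-232151281 (10.62, next 10.08) and at chr2:160051126-160093343 (4.78, next 4.40). That library had the lowest total of the 7 SHAM libraries used. In RYGB, rat 330 was highest at chr4:241606529-241650653 (9.91, next 9.64). In SD, rat 357 was highest at chr1:270631411-270687644 (4.10, next 3.88) and lowest at chr3:160898555-160933737 (4.19, next 5.10).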

How the results depend on the processing

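The number of members depended on the scaling. With TMM effective sizes 48 genes met the rule, with a difference of at most -0.5 it was 51, and after the offset for exonic length 39. Leaving out 1 rat gave 113 to 242 members, the highest without RYGB-FMRR rat 326 and 184 without RYGB rat 337; fewer rats make the rule easier to meet. In SHAM compared with SD, library totals only gave 2502 genes higher and 784 lower, with 41 members higher and 9 lower. The adjusted p alone gave 2580 and 2627 genes, with 42 members higher and 25 lower. Of the members that met the rule on both scales, 15 were called higher and 8 lower. With the Wald test of DESeq2, its size factors in edgeR, no filter, all 31 libraries, the model of SD and SHAM alone and the length offset, 24 to 29 members were called higher and 14 to 17 lower. Over all genes the same settings gave 1290 to 1686 higher and 1052 to 1354 lower. Leaving out 1 SD or SHAM rat gave 21 to 35 members higher and 12 to 16 lower. Calls over all genes moved too, with 1795 and 1273 without SD rat 353 and 1304 and 1066 without SD rat 355. The median SHAM minus SD difference over the members was 0.26 with library totals and 0.14 with TMM.

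Of 588 values for the 28 genes described singly, 565 stayed on the same side of the threshold, 15 lost the call, 8 gained it and 0 changed direction while called. No paired analysis was possible because each rat belongs to a single group and no label numbers the replicates. The causes of these changes were not tested. Depth limited the 2 SHAM libraries that were left out, with 121511 and 101534 counts.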
